A study of Mus musculus with 30 samples.

Results

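Thyroid transcripts of 9 complement component genes were followed across 30 libraries: C2, C3, C4b, C6, C7, C1ra, C1s1, Cfb and Serping1. They are 9 of the 50686 genes counted. These genes were picked by name from a list of complement components, chosen on earlier results from the same counts. No expression threshold sets the list, but a call on one of them is a description and not independent support. Another 50 genes of the complement system, listed by role, were read in the same fits.

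Complement is a cascade of plasma proteins that marks microbes and dying cells, draws in phagocytes and opens pores in membranes. In the classical pathway the recognition molecule C1q activates the proteases C1r and C1s, which cut C4 and C2 into an enzyme that cleaves C3, while the alternative pathway uses factor B and factor D to amplify that step. The terminal components C5 to C9 assemble the pore. The liver makes most of the circulating proteins, and fibroblasts, fat cells, macrophages and epithelia of many organs transcribe some of the genes.

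Poly(A) RNA of thyroid glands from C57BL/6 mice was sequenced in 10 groups of 3 libraries. The FAD4T set has 8 of them: FAD4T males, FAD4T females, wild-type (WT) males and WT females, each aged 8 or 2 months. An ageing set compares WT males aged 18 months with further WT males aged 2 months, whose titles are numbered 4 to 6. The labels do not say outright that these belong beside the 18-month males. The labels do not say what FAD4T stands for, which alleles these mice carry or whether libraries share litters or days, so p-values measure the spread between these samples. All mice are labelled C57BL/6, and no agent or treatment is named.

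The libraries held 14083958 to 20256049 counts assigned to genes, and 0 pairs of libraries within a group were identical. Levels are given as CPM, the counts of a gene relative to the counts of its library, scaled over all 30 libraries. All 10 thyroid follicle markers were counted in every group, summing to 40180 to 311600 CPM per library. Transcripts of other tissues varied between libraries. The sum of 10 hepatocyte markers was 344 to 745 CPM in the 12 libraries of 8 months and 10.2 to 17.9 CPM at 18 months, and it reached 3720 CPM in WT female replicate 1 of 2 months. In that library the albumin gene Alb was at 2424 CPM. The mean log2(CPM + 1) of 9 thymocyte markers lay between 3.13 and 5.14 in 5 FAD4T libraries, at 2.00 in WT male replicate 2 of 18 months and at 1.82 or less in the other 24. In whole glands, fewer cells of a type and less RNA per cell cannot be told apart.

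The start regions of C7 and C3 are shown first, because the sex and age calls on these members, averaged as described below, held without each of the 24 libraries of the FAD4T set. RefSeq windows on GRCm38.p6, 250 bases before to 50 after a gene start, matched 5 of the 9 members (C1ra, C1s1, C3, C6 and C7). C7 lies on the minus strand of chromosome 15 and its window is chr15:5063724-5064023. C3 lies on the minus strand of chromosome 17 and its window is chr17:57228087-57228386. Capitals mark matches on either strand to TTCNNNGAA (the core read by STAT factors), TTGCNNAA (C/EBP-type) or TATAAA.
C7: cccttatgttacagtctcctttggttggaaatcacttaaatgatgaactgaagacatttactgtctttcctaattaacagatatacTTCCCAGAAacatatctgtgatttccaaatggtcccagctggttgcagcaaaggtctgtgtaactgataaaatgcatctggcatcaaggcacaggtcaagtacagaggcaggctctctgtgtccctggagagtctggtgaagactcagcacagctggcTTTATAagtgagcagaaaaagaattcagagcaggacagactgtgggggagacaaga
C3: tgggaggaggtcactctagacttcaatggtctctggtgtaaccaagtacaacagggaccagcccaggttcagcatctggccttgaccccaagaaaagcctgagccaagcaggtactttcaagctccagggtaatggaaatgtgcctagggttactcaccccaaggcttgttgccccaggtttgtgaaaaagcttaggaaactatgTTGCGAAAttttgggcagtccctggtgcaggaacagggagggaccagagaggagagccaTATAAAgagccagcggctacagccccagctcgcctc
The C7 window held the STAT-type letters from 164 to 156 bases before the start (read the same way on both strands) and, on the opposite strand, TATAAA directly before the start. Of all 32851 windows, 8.3% held the STAT-type letters and 13.6% held TATAAA. The C3 window held the C/EBP-type letters from 45 to 38 bases before the start, found in 10.8% of windows, and TATAAA beginning 14 bases after it. The IRF-type and NF-kB-type motifs were searched as well. The first matched none of the members' windows and 3.4% of all windows. The second matched C3 at 4 places, of which the pair farthest upstream overlap each other. It also matched both overlapping windows of C1s1, at 1 place each, and 50.8% of all windows. A match is a description of letters and was not tested as a binding site.

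Per kilobase of exon, C3 was the most abundant member, with a mean over 30 libraries of 33.7 CPM per kb. Serping1 followed at 23.8, C1s1 at 12.3, C1ra at 6.09, C4b at 4.85 and C7 at 2.36 CPM per kb. C2 stood at 0.593, C6 at 0.159 and Cfb at 0.0735 CPM per kb. The counting bears on the lowest of these: 79.5% of the exon bases of Cfb and 42.8% of those of C2 lie inside the gene model Gm20547 on the same strand, and reads over shared exons went to no gene. All exon bases of Gm20547 (100%) lie inside other genes, so this rule left it at 0 counts in all 30 libraries. The levels of Cfb and C2 are therefore understated relative to the other members, and Cfb was too low to test in any comparison.

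**Figure D1:**
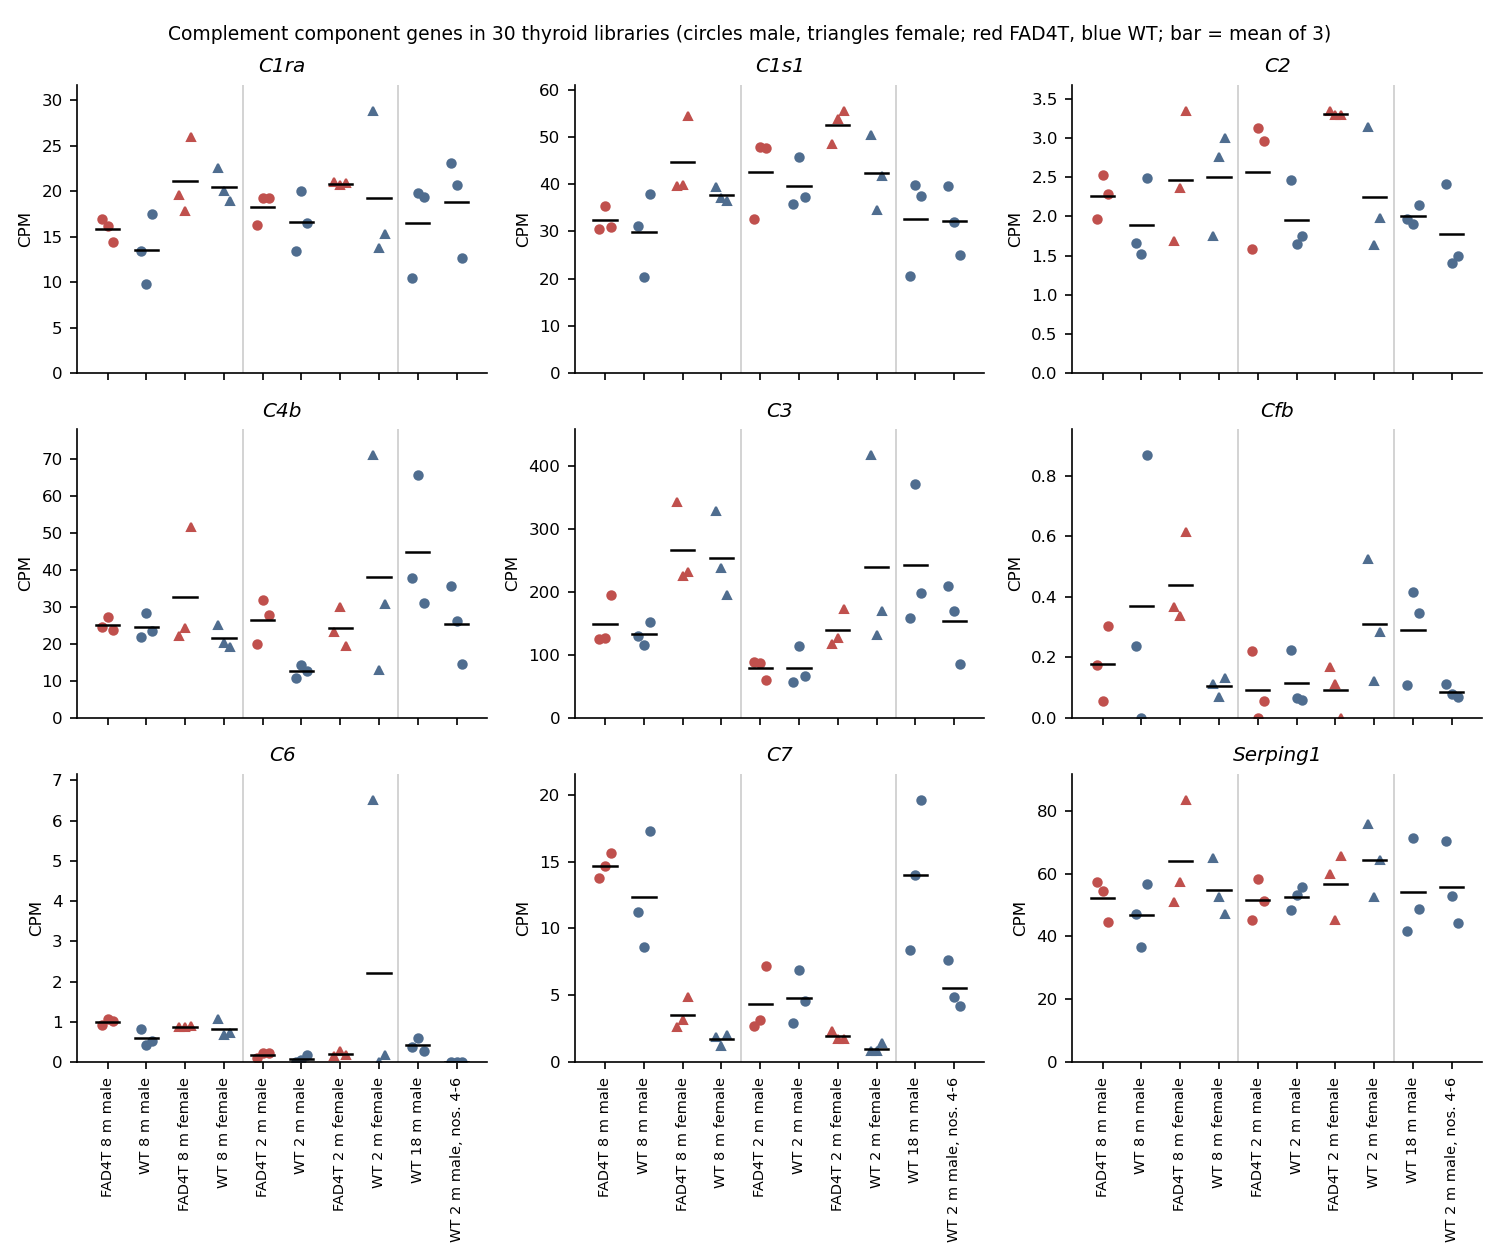
Level of each member (CPM, linear axis from 0) in every library, by group; circles are males, triangles females, red FAD4T, blue WT, and the bar is the mean of 3. C7 is high in male libraries of 8 and 18 months, C3 is lower in males than in females of the same age and genotype within the FAD4T set, and C6 is highest in 1 WT female library of 2 months.

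C7 (ENSMUSG00000079105, chromosome 15, 4988762 to 5063773, GRCm38), whose protein joins the growing pore complex and lets it insert into the membrane, varied most among the members that were counted in every group. Its highest group mean was 14.3 times its lowest. In males of 8 months it stood at 13.7, 14.7 and 15.6 CPM in FAD4T and at 11.3, 8.59 and 17.3 CPM in WT. In females of 8 months it stood at 2.64, 3.17 and 4.85 CPM in FAD4T and at 1.92, 1.21 and 2.03 CPM in WT. At this age every male library lay above every female library. In males of 2 months C7 was at 2.69, 3.13 and 7.16 CPM in FAD4T and at 2.91, 6.93 and 4.60 CPM in WT. In females of 2 months it was at 2.34, 1.73 and 1.73 CPM in FAD4T and at 0.814, 0.846 and 1.42 CPM in WT. Here too the males of these 4 groups lay above the females. WT males of 18 months held 8.37, 14.0 and 19.6 CPM, against 7.62, 4.86 and 4.21 CPM in the second set of WT males of 2 months, with no overlap. In the order of group means the 3 male groups of 8 and 18 months came first, and their ranges overlapped. A gap followed between WT males of 8 months and the second set of 2 months, then the other male groups and FAD4T females of 8 months, and after a second gap the remaining females.

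C7 was higher in males than in females at both ages and in both genotypes. In WT mice of 8 months it averaged 12.4 ± 4.46 CPM in males and 1.72 ± 0.442 CPM in females (SD, n = 3 each), a log2 fold change of 2.83 (SE 0.40, edgeR adjusted p = 0.00109). This call held without any 1 of the 6 libraries. In FAD4T mice of 8 months the means were 14.7 ± 0.946 CPM in males and 3.56 ± 1.15 CPM in females (log2 2.04, SE 0.38, adjusted p = 0.0147). In WT mice of 2 months they were 4.81 ± 2.02 CPM in males and 1.03 ± 0.339 CPM in females (log2 2.21, SE 0.41, adjusted p = 0.0365). C7 was the only member called in these 3 comparisons, in which 0.27%, 0.27% and 0.0757% of all 18493 genes tested were called. With 1 library left out, 23 to 84, 28 to 39 and 6 to 252 genes were called, in the order given. The highest of these counts came without WT female replicate 1 of 8 months, FAD4T male replicate 1 of 8 months and WT female replicate 2 of 2 months, and the lowest without WT male replicate 2 of 8 months, FAD4T male replicate 3 or FAD4T female replicate 1 of 8 months, and WT female replicate 1 of 2 months. The FAD4T call was lost without FAD4T male replicate 2 or 3 or FAD4T female replicate 1 or 2 of 8 months (adjusted p up to 0.116). The WT call at 2 months was lost without WT male replicate 2 or 3 or WT female replicate 1 (adjusted p up to 0.201), and with the compared groups fitted alone (adjusted p = 0.448). In FAD4T mice of 2 months the means were 4.33 ± 2.46 CPM in males and 1.93 ± 0.351 CPM in females (log2 1.17, SE 0.38, adjusted p = 0.741). There 0 of 8 members passed in edgeR and 0 in DESeq2, 2 had an unadjusted p under 0.05, and 0.0649% of all genes were called.

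The 4 sex comparisons were also averaged into 1 contrast, chosen after seeing the data, which uses the same 24 libraries and is no independent support. Averaged so, C7 rose in males by 2.06 on the log2 scale (SE 0.20, adjusted p = 2.26e-06) and C3 fell by 1.05 (SE 0.17, adjusted p = 0.0017), and 1.88% of all genes were called. Both calls held without each of the 24 libraries in turn. The call on C3 was lost when the 5 libraries with a high thymocyte signature were left out together (log2 -1.06, adjusted p = 0.0758), while C7 kept its call (log2 1.94, adjusted p = 0.000376). This leaves 1 FAD4T library of 2 months in each sex. The other 6 members tested were all lower in males by this average, from -0.24 in Serping1 to -1.28 in C6, and none passed (adjusted p from 0.141 to 0.522). The value of C6 was -0.14 without WT female replicate 1 of 2 months (adjusted p = 0.929). For C1ra the approximate 95% interval was -0.58 to -0.12 and for C1s1 -0.49 to -0.11. In single strata C4b was higher in males in WT of 8 months (log2 0.18) and in FAD4T of 2 months (0.14). It was lower in males in WT of 2 months (-1.60), where WT female replicate 1 held 71.1 CPM, and in FAD4T of 8 months (-0.375). C6 was higher in males in FAD4T of 8 months (0.19).

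C3 (ENSMUSG00000024164, chromosome 17, 57203970 to 57228136), the component on which all pathways converge, was lower in males than in females in all 4 strata, with no overlap in any. At 8 months it stood at 126, 127 and 194 CPM in FAD4T males and at 343, 225 and 231 CPM in FAD4T females. In WT mice of that age it stood at 130, 116 and 151 CPM in males and at 329, 238 and 195 CPM in females. Every male of 8 months thus lay below every female. At 2 months it stood at 88.1, 86.9 and 59.5 CPM in FAD4T males and at 117, 127 and 173 CPM in FAD4T females. In WT mice of 2 months it stood at 57.0, 114 and 66.6 CPM in males and at 417, 131 and 169 CPM in females. Within these 24 libraries the males again lay below the females, but the second set of WT males of 2 months (209, 169 and 85.2 CPM) overlapped with the females. In none of the 4 strata alone did C3 pass, with log2 values from -1.59 to -0.83 and adjusted p from 0.107 to 0.905.

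**Figure D2:**
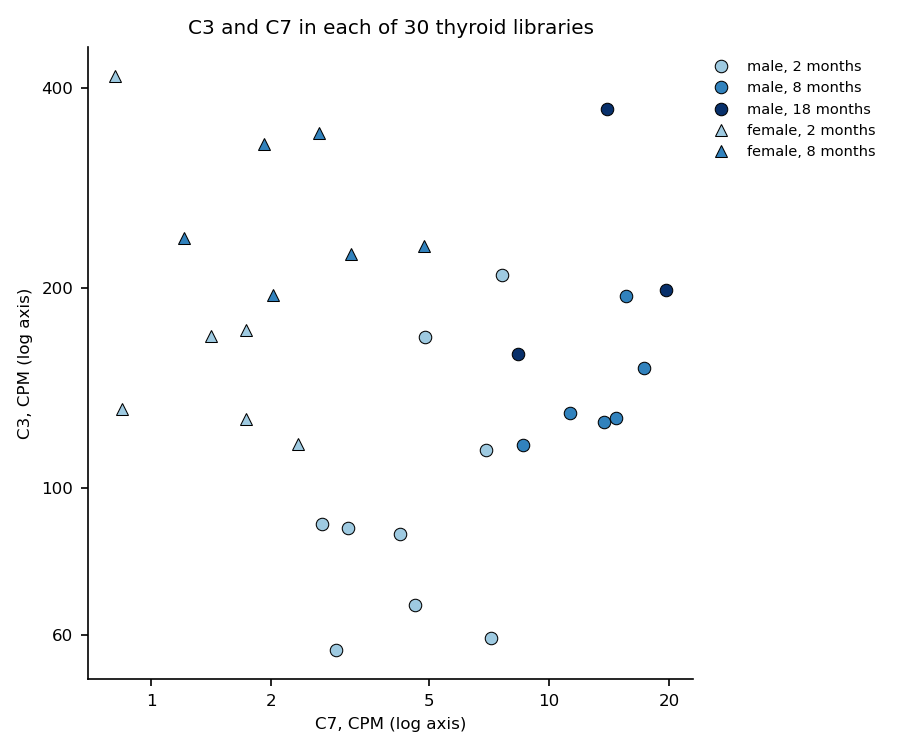
C7 (horizontal) against C3 (vertical), both in CPM on log axes, 1 point per library; circles are males, triangles females, and darker blue is older. Females sit to the left at low C7, males of 8 and 18 months to the right at 8.37 CPM or more.

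Summed markers of other cells stand beside these sex differences. At 8 months the sum of 9 fibroblast markers was 386 to 660 CPM in males and 729 to 1068 CPM in females. At 2 months it was 631 to 855 CPM in males and 806 to 1042 CPM in females, with overlap. All 9 markers were counted in every group. The sum of 8 adipocyte markers at 8 months was 484 to 1122 CPM in males and 839 to 1220 CPM in females. The hepatocyte sum at 8 months was 389 to 730 CPM in males and 344 to 745 CPM in females, with overlap. The part of fibroblasts, fat and liver transcripts in the lower C3 of males was not tested. Males of 8 months, with higher C7, had lower fibroblast sums without overlap, and adipocyte sums that overlapped with those of females. The part of fibroblasts and fat in C7 was not tested. The library with the most Alb, WT female replicate 1 of 2 months, held the lowest C7 of all 30 (0.814 CPM) and the highest C3 and C4b (417 and 71.1 CPM).

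Other complement genes also differed between the sexes by the averaged contrast. Cfd, which encodes factor D and is made by fat cells, fell in males by 1.31 on the log2 scale (SE 0.17, adjusted p = 0.000141). Susd4, a membrane inhibitor, rose in males by 0.66 (SE 0.14, adjusted p = 0.0128). Without the 5 thymocyte-high FAD4T libraries the call on Susd4 (adjusted p = 0.0956) was lost and that on Cfd held (0.000623). In the 4 strata taken singly 0 of the 44 tested passed.

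**Figure D3:**
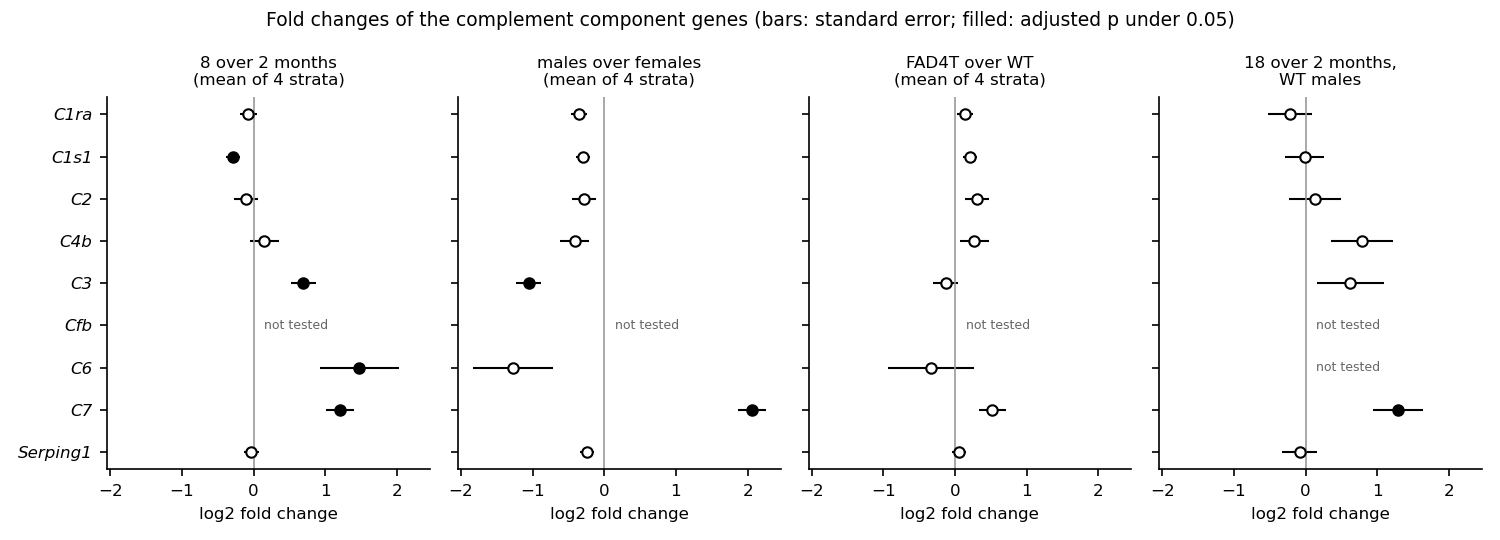
Log2 fold changes of the members with their standard errors, for 8 over 2 months, males over females and FAD4T over WT (each averaged over 4 strata of the 24 libraries) and for 18 over 2 months in WT males; filled points have an adjusted p under 0.05. C7 is filled in 3 of the 4 panels and no member is filled for FAD4T over WT.

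C7 was also higher in older glands. In FAD4T males it averaged 14.7 ± 0.946 CPM at 8 months and 4.33 ± 2.46 CPM at 2 months (log2 1.78, SE 0.37, adjusted p = 0.0284), the only member called there, against 1.57% of all genes (291, and 12 to 3918 with 1 library left out, lowest without FAD4T male replicate 3 and highest without replicate 1 of 2 months). The call was lost without FAD4T male replicate 2 of 2 months or without any 1 of the 3 FAD4T males of 8 months (adjusted p up to 0.143). It was also lost with the compared groups fitted alone (log2 1.77, adjusted p = 0.0734), where C6 was called instead. Without the thymocyte-high libraries, which leaves 1 FAD4T male of 2 months, 0 of 19362 genes were called in edgeR (859 had an unadjusted p under 0.05) and C7 had a log2 value of 2.49 (adjusted p = 0.457). In WT males it averaged 12.4 ± 4.46 CPM at 8 months and 4.81 ± 2.02 CPM at 2 months, without overlap (log2 1.38, SE 0.37, adjusted p = 0.0991). In FAD4T females it averaged 3.56 ± 1.15 CPM at 8 months and 1.93 ± 0.351 CPM at 2 months, without overlap (log2 0.91, SE 0.39, adjusted p = 0.109). In WT females it averaged 1.72 ± 0.442 CPM at 8 months and 1.03 ± 0.339 CPM at 2 months, with overlap (log2 0.76, SE 0.41, adjusted p = 0.659). Of the 8 members tested, edgeR called 0 in these last 3 comparisons, against 0.692% of all genes in WT males, 10.1% in FAD4T females and 0.254% in WT females. With 1 library left out these shares moved widely. In FAD4T females the count of 1874 genes became 6703 without FAD4T replicate 3, 4 without replicate 1 and 18 without replicate 2 of 2 months, and 48 to 379 without 1 of 8 months. In WT males 128 became 30 to 55, and in WT females 47 became 10 (without replicate 2 of 8 months) to 211 (without replicate 1 of 2 months). DESeq2 called 1 in WT males (C7), 1 in FAD4T females (C3) and 0 in WT females, and 4, 2 and 0 members had an unadjusted p under 0.05.

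Averaged over the 4 age comparisons, again chosen after seeing the data, 3 members rose and 1 fell at 8 months, in a contrast that called 32.6% of all genes. C7 rose by 1.21 on the log2 scale (SE 0.19, adjusted p = 0.000301) and C3 by 0.70 (SE 0.17, adjusted p = 0.00627), and both calls held without each of the 24 libraries. C6 rose by 1.47 (SE 0.55, adjusted p = 0.0466) and C1s1 fell by 0.28 (SE 0.10, adjusted p = 0.0324). The call on C6 held in 4 and that on C1s1 in 13 of the 24 fits with a library left out, and their highest adjusted p were 0.086 (without WT male replicate 1 of 2 months) and 0.0756 (without WT female replicate 1 of 2 months). Without that WT female library, the one with the most Alb, C6 rose by 2.62 (adjusted p = 1.92e-05). Without the 5 thymocyte-high libraries 671 genes were called in place of 6027, and of the 4 members only C7 remained called (log2 1.42, adjusted p = 0.00379). The others had log2 values of 0.59 in C3 (adjusted p = 0.203), 1.71 in C6 (0.323) and -0.21 in C1s1 (0.393). Of 44 other complement genes tested 10 rose and 2 fell, a smaller share than the 32.6% of all genes called. Of the 10, 7 are best known as liver products, namely C8a, C4bp, Hc (the gene of C5), Mbl1, Mbl2, Cfhr2 and Cpn1. The 4 with the largest rise were C8a (3.86), Mbl2 (3.32), Mbl1 (3.29) and Hc (3.27), with C4bp (3.26) next. Without WT female replicate 1 of 2 months the values were 5.57 in C8a, 5.85 in Mbl2, 5.33 in Mbl1, 4.99 in Hc and 5.21 in C4bp, all called, so that both the sizes and the order rest on that library. The 2 that fell were Cfp, which encodes properdin (-0.64), and Cd46 (-0.63). Without the thymocyte-high libraries only Itgax, a receptor subunit, kept its call among these 12 (adjusted p = 0.0182). The call on Cpn1 held in 13, that on Cr1l in 9 and that on Mbl2 in 23 of the 24 fits with a library left out (lost without FAD4T male replicate 3 of 2 months, adjusted p = 0.052). These rises stand beside the hepatocyte sums of 344 to 745 CPM at 8 months, against 26.5 to 138 CPM in 11 of the 12 libraries of 2 months in the FAD4T set and 3720 CPM in the other. In those 11 most of the sum was the marker Cyp2e1, at 17.95 to 136.0 CPM, with Alb at 0 to 15.26 CPM. The libraries of 8 months held Cyp2e1 at 60.37 to 173.3 CPM and Alb at 121 to 417 CPM. The part of liver transcripts in the rise of C3 and C6 was not tested.

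C6 (ENSMUSG00000022181, chromosome 15, 4727175 to 4815456), the pore component that binds C5b before C7, was barely counted, with 327 counts over 30 libraries and 0 in 5 of them. WT female replicate 1 of 2 months alone gave 112 counts (6.51 CPM), and the other 2 libraries of that group gave 0 and 3. At 8 months C6 was at 0.923, 1.08 and 1.02 CPM in FAD4T males and at 0.829, 0.419 and 0.521 CPM in WT males. In females of 8 months it was at 0.881, 0.878 and 0.889 CPM in FAD4T and at 1.07, 0.674 and 0.719 CPM in WT. The 12 libraries of 8 months held Alb at 121 to 417 CPM, and their C6 came to 1.93 to 7.02 counts per 1000 Alb counts, with 2.69 in the WT female library of 2 months. At 2 months, FAD4T female replicate 1 had 3 counts of C6 and 274 of Alb, a ratio of 10.9. C6 was also counted where Alb was almost absent. FAD4T males of 2 months gave 2, 4 and 4 counts of C6 with 49, 1 and 4 of Alb. WT males of 18 months held C6 at 0.383, 0.595 and 0.289 CPM, 22 counts in all, with 1 count of Alb over the 3 libraries and 4 of the 10 hepatocyte markers at 0. The second set of WT males of 2 months had 0 counts of C6 in each library, with 152, 25 and 66 of Alb. Against a limit of 3 counts summed over that group, C6 was 6.35-fold higher at 18 months. This value leaves out the error of the 22 counts and the spread between mice. WT males of 2 months in the FAD4T set had 0, 1 and 3 counts of C6. In the fit of 18 against 2 months C6 did not pass the filter on low counts, and DESeq2 called it.

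**Figure D4:**
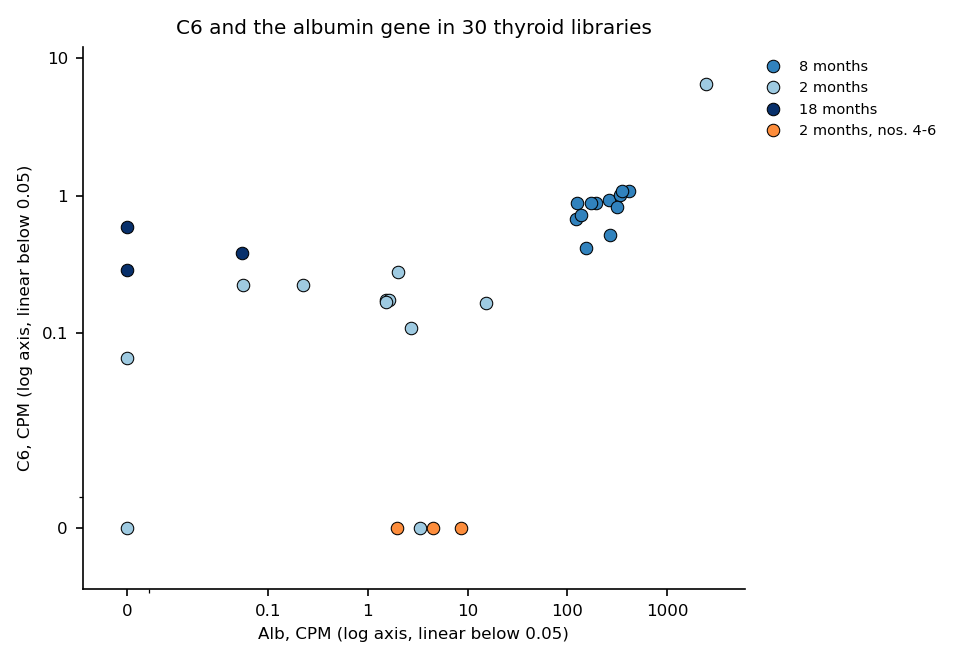
C6 (vertical) against the albumin gene Alb (horizontal), in CPM on log axes that are linear below 0.05, 1 point per library coloured by age and set. The 12 libraries of 8 months lie at 121 to 417 CPM of Alb and 0.419 to 1.08 CPM of C6, 1 library of 2 months lies far to the upper right, and the 18-month libraries lie at the left edge.

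Between WT males of 18 and 2 months, C7 was the 1 member called of 7 tested, in a comparison where 35.9% of all 16283 genes were called, so that the count stands below the background share. The 5840 genes called became 3651 without replicate 5 of 2 months and 1417 with all 6 WT males of 2 months as 1 group. It averaged 14.0 ± 5.62 CPM at 18 months and 5.56 ± 1.81 CPM at 2 months (log2 1.29, SE 0.35, adjusted p = 0.0211). The call was lost without 18-month replicate 3 or without replicate 5 or 6 of 2 months (adjusted p up to 0.0793). C4b averaged 44.9 ± 18.4 CPM at 18 months and 25.4 ± 10.6 CPM at 2 months (log2 0.79, SE 0.43, adjusted p = 0.209), and C3 averaged 243 ± 113 CPM at 18 months and 154 ± 63.1 CPM at 2 months (log2 0.63, SE 0.47, adjusted p = 0.347). Neither separated the groups. C1ra, C1s1, C2 and Serping1 had log2 values from -0.22 to 0.13 and adjusted p from 0.605 to 0.972. The median log2 fold change of the 7 members was 0.13, against -0.01 over all genes tested.

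Of 34 other complement genes tested at 18 against 2 months, 6 rose and 5 fell, a share near the 35.9% of all genes called. Among the receptors 4 of 7 rose. C5ar1, the main receptor of the peptide C5a, stood at 5.03 ± 1.46 CPM at 18 months and 1.39 ± 0.204 CPM at 2 months (log2 1.81, SE 0.35, adjusted p = 0.00487). Its second receptor C5ar2 rose by 1.27 (SE 0.43, adjusted p = 0.0459). Itgax and Itgb2, the subunits of complement receptor 4, rose by 1.38 and 1.13 (adjusted p = 0.00476 and 0.0127). Csmd2, a large membrane protein with complement control domains, stood at 10.4 ± 1.96 CPM at 18 months and 0.435 ± 0.115 CPM at 2 months (log2 4.51, SE 0.32, adjusted p = 0.000706), and Susd4 rose by 0.56 (adjusted p = 0.0435). The calls on C5ar1, Itgax, Itgb2, Csmd2 and Cd59b held without each of the 6 libraries. Those on C5ar2 and Susd4 were lost without any 1 of the 6 (adjusted p up to 0.177 and 0.10), and DESeq2 did not call C5ar2 (adjusted p = 0.0908). Csmd2 also rose in WT males of 8 months (log2 2.91, SE 0.63, adjusted p = 0.0355), a call lost without any 1 of those 6 libraries (adjusted p up to 0.146). Cfd fell to 116 ± 43.5 CPM at 18 months, against 501 ± 227 CPM at 2 months (log2 -2.15, SE 0.45, adjusted p = 0.0142). Cpn2 (-3.91), the lectin Colec11 (-1.81), vitronectin Vtn (-1.30) and the pore inhibitor Cd59b (-1.20) fell as well, and the C1q chains C1qa, C1qb and C1qc had log2 values from -0.17 to -0.03 that did not pass. The call on Cfd was lost without 18-month replicate 3 (adjusted p = 0.0535), that on Vtn without replicate 6 of 2 months (0.0602) and that on Cpn2 without replicate 5 or 6 of 2 months (up to 0.0571). That on Colec11 held only without 18-month replicate 2 and was otherwise lost (up to 0.107). Without 18-month replicate 3 the value of Cpn2 was -8.07. With all 6 WT males of 2 months as 1 group none of the 5 falls passed (adjusted p = 0.134 for Cfd, 0.123 for Vtn, 0.122 for Colec11, 0.0853 for Cd59b and 0.0573 for Cpn2), with log2 values from -0.85 to -3.34. The call on Cfd was lost with no filter on low counts (0.0614) and that on Vtn with all 30 libraries in 1 fit (0.213). Beside these stands the sum of 8 macrophage markers, at 212 to 335 CPM at 18 months and 110 to 233 CPM at 2 months, with overlap. The macrophage marker Cd68 ran the other way, at 9.58 to 10.64 CPM at 18 months and 10.65 to 17.1 CPM at 2 months. The sum of 8 adipocyte markers was 176 to 434 CPM at 18 months and 1446 to 1708 CPM at 2 months. All markers of both lists were counted in both groups. The hepatocyte sum was 10.2 to 17.9 CPM at 18 months and 201 to 364 CPM at 2 months. Most of this sum was 1 marker, Cyp2e1, at 9.08 to 15.05 CPM at 18 months and 185.1 to 341.2 CPM at 2 months. Alb was at 0 to 0.0547 CPM at 18 months and 1.96 to 8.52 CPM at 2 months. The part of macrophages and fat in the receptor rises and in the fall of Cfd, and of liver transcripts in the falls of Vtn and Cpn2, was not tested.

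**Figure D5:**
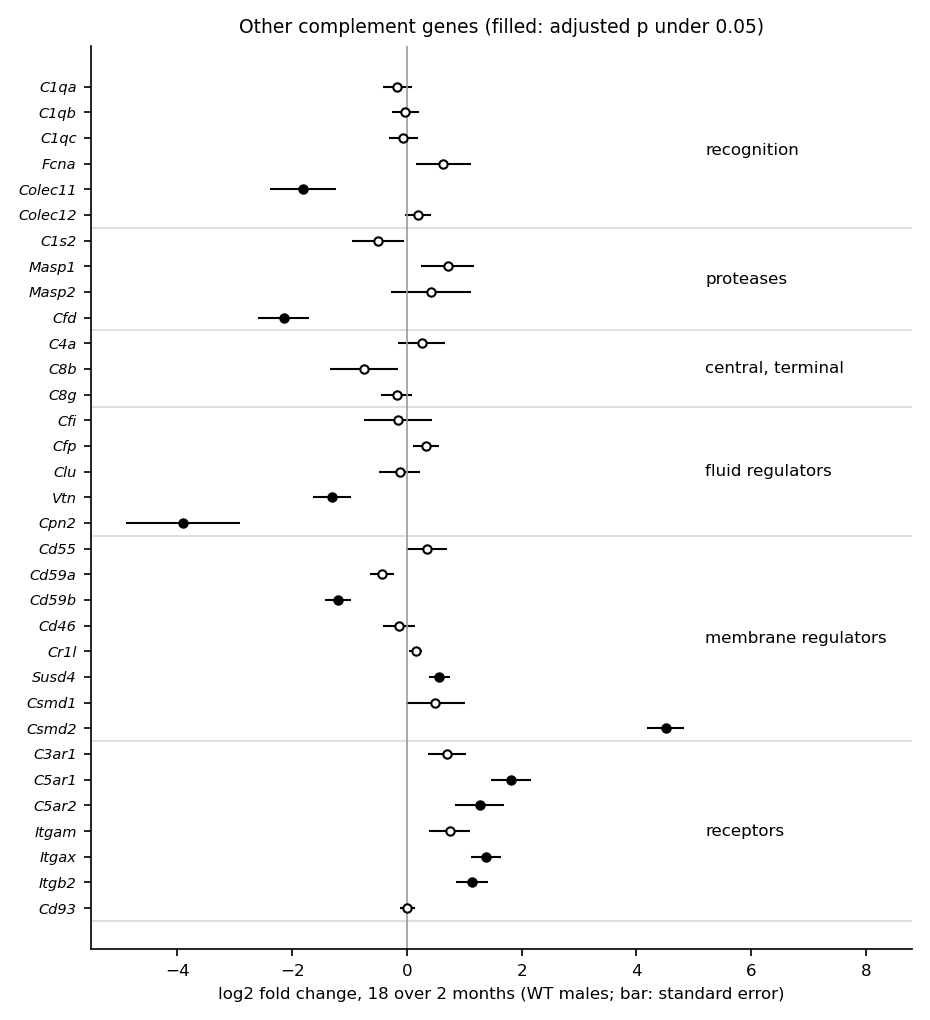
Log2 fold changes (18 over 2 months, WT males) of the other complement genes that could be tested and are reported here, grouped by role, with standard errors; filled points have an adjusted p under 0.05. Filled points among the receptors all lie to the right, and Csmd2 lies farthest right at 4.51.

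No member was called between FAD4T and WT at either age in either sex. Of 8 tested, 0 passed in edgeR and 0 in DESeq2 in each of the 4 comparisons, against 0.0%, 0.0% and 0.0% of all genes in males of 2 months, females of 2 months and males of 8 months and 0.0216% in females of 8 months. In the 3 comparisons with no gene called, 2679, 3087 and 335 genes had an unadjusted p under 0.05, and DESeq2 called 98, 287 and 0. The count of 0 rests on single libraries at 2 months. In females it became 3001 of 18934 genes without FAD4T replicate 3, 100 without WT replicate 2 and 130 without WT replicate 3, and in males 36 without FAD4T replicate 1. In females of 8 months 4 genes became 0 to 9 with 1 library left out, 9 without WT replicate 1. The replicate block gave 66 in females of 2 months. In the order given, 1, 3, 0 and 1 members had an unadjusted p under 0.05. The 3 in females of 2 months were C7, C3 (log2 -0.78, adjusted p = 0.275) and C6 (log2 -3.37, adjusted p = 0.184), and the WT group of that comparison holds the library with the most Alb. Without it the log2 value of C6 was 1.16 (adjusted p = 0.386), of opposite sign, and that of C3 was -0.13 (adjusted p = 0.813). Averaged over the 4 comparisons, chosen after seeing the data, 0 of 8 passed, 2 had an unadjusted p under 0.05 (C7 and C1s1), and 0.0% of all genes were called, with 2855 at an unadjusted p under 0.05. DESeq2 was not run on the averaged contrasts. In that average C7 was higher in FAD4T by 0.52 on the log2 scale (approximate 95% interval 0.15 to 0.90, adjusted p = 0.24) and C1s1 by 0.21 (0.01 to 0.40, adjusted p = 0.321). For C3 the interval was -0.47 to 0.21 and for Serping1 -0.14 to 0.25. How the FAD4T difference itself varied was tested between the sexes at 2 and at 8 months and between the ages in males and in females. In these 4 tests 0 of 8 members passed in edgeR or DESeq2, with 0.0% of all genes called in each, and 2, 0, 0 and 2 members had an unadjusted p under 0.05.

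C4b (ENSMUSG00000073418, chromosome 17, 34728380 to 34743882), which encodes the C4 cut by C1s, did not overlap between the genotypes in males of 2 months of the FAD4T set. It stood at 20.02, 31.92 and 27.69 CPM in FAD4T and at 10.9, 14.2 and 12.7 CPM in WT (log2 1.08, SE 0.40, adjusted p = 0.343). The second set of WT males of 2 months, at 35.6, 26.3 and 14.4 CPM, overlapped with FAD4T, and with all 6 WT males as 1 group the log2 value was 0.46 (adjusted p = 0.482). Its near copy C4a, with which it may share reads, was higher there too, at 2.60 ± 0.635 CPM in FAD4T and 1.51 ± 0.263 CPM in WT (log2 0.78, SE 0.35, adjusted p = 0.343). At 8 months C4b of males overlapped, at 25.2 ± 1.78 CPM in FAD4T and 24.7 ± 3.33 CPM in WT. In females it ranged over 22.1 to 51.6 CPM in FAD4T and 19.1 to 25.1 CPM in WT at 8 months. At 2 months the WT females spread from 12.9 to 71.1 CPM, around the 19.4 to 30.0 CPM of FAD4T. Per kilobase, C4b stood 5.9 to 33.5 times above C4a (median 13.3 over 30 libraries).

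In females C7 was higher in FAD4T at both ages without overlap, by 0.91 on the log2 scale at 2 months (SE 0.41, adjusted p = 0.278) and by 1.05 at 8 months (SE 0.39, adjusted p = 1). In males it overlapped at both ages (log2 -0.14 and 0.27). The difference between these effects, males minus females, was -1.05 at 2 months and -0.78 at 8 months (adjusted p = 1 in both). The 5 FAD4T libraries high in thymocyte markers were replicates 2 and 3 of the males and 1 and 2 of the females of 2 months, and male replicate 1 of 8 months. The part of thymocytes in any FAD4T value was not tested.

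The proteases of C1 and their inhibitor had the narrowest ranges of the well-counted members. C1ra (ENSMUSG00000055172, chromosome 6, 124512405 to 124523443), which encodes the protease C1r that activates C1s, had group means of 13.6 to 21.1 CPM. C1s1 (ENSMUSG00000038521, chromosome 6, 124530345 to 124542359), which encodes the protease C1s, had group means of 29.8 to 52.6 CPM. Serping1 (ENSMUSG00000023224, chromosome 2, 84765387 to 84775444), the C1 inhibitor, which blocks both proteases, had the narrowest range, 46.8 to 64.2 CPM, a ratio of 1.37. In the order of group means no 2 neighbouring groups of these 3 genes were apart. WT males of 8 months were lowest in all 3. Per kilobase C1s1 stood 1.48 to 2.61 times above C1ra in every library, with a median of 2.02. C1s1 and Serping1 were highest in the same library in 8 of the 10 groups, and C1ra with C1s1 and with Serping1 in 7. This was not particular to these 3 genes. C4b and C1s1 shared the highest library in 8 groups, and C3 with C1s1, C4b with C6 and C2 with Cfb in 7. Antisense Gm16567 covers 18.4% of the exon bases of C1s1. The copies C1rb and C1s2 totalled 30 and 895 counts over the 30 libraries, against 9127 for C1ra and 19511 for C1s1, and reads shared between copies make each uncertain.

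C2 (ENSMUSG00000024371, chromosome 17, 34862604 to 34898265), the partner of C4 in the enzyme that cuts C3, had 1168 counts in all and group means of 1.77 to 3.31 CPM. It was highest in FAD4T females of 2 months, at 3.34, 3.29 and 3.29 CPM, against 3.14, 1.63 and 1.98 CPM in WT females (log2 0.56, SE 0.33, adjusted p = 0.382). The groups did not overlap, and that group was the only one set apart from its neighbour in the order of means. It was not apart from all groups, as FAD4T females of 8 months reached 3.35 CPM. Cfb (ENSMUSG00000090231, chromosome 17, 34856374 to 34862518), the protease of the alternative pathway, had 104 counts in 30 libraries, 0 in 3 of them and at most 15 in 1. Its largest values were 0.868 CPM in WT male replicate 3 and 0.615 CPM in FAD4T female replicate 3, both of 8 months. In females of 8 months it was at 0.367, 0.338 and 0.615 CPM in FAD4T and at 0.113, 0.0674 and 0.131 CPM in WT, with no overlap and no test.

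Across the 10 group means the members did not share 1 pattern. As Pearson r of log2(CPM + 1), which 10 points from a common set of libraries give as a description only, C1s1 went with C2 (0.83) and C1ra (0.75), and C1ra with Serping1 (0.79). C7 ran opposite to C1ra (-0.81), C1s1 (-0.76) and Serping1 (-0.66). Outside the complement lists, 11440 genes were searched for the most similar pattern. How high an r a search of this size gives by chance was not tested. C7 was closest to Rab11fip4 (0.97) and Ehf (0.94), C3 to Kctd21 (0.91) and Cmklr1 (0.90), and C4b to Gpn1 and Exosc10 (both 0.89). C6 was closest to Ambp and Pzp (both 0.93), each a plasma protein gene of the liver. Its highest group mean, in WT females of 2 months, came from replicate 1, at 6.51 CPM against 0 and 0.170 CPM. C1ra was closest to Lrp4 (0.95) and the collagen gene Col1a2 (0.91), and Serping1 to Igfbp5 (0.92) and Col15a1 (0.88). C1s1 was closest to Plekhh2 (0.98) and Plekha6 (0.98), C2 to Disp2 (0.96) and Myo5a (0.94), and Cfb to Josd1 and Fam206a (both 0.86). In FAD4T males the lectin gene Fcna fell at 8 months (log2 -1.96, SE 0.49, adjusted p = 0.0484), and in FAD4T females Cd46 (-1.15) and Cfp (-0.98) fell, the only other complement genes called in those comparisons. Without the thymocyte-high libraries edgeR called 0 of all genes in both comparisons, with 859 and 910 at an unadjusted p under 0.05, and the log2 values were -1.58 in Fcna, -0.94 in Cd46 and -0.12 in Cfp (adjusted p = 1 in each). Leaving out 1 library ended that on Fcna in 5, on Cfp in 5 and on Cd46 in 4 of 6 cases (adjusted p up to 0.198, 0.209 and 0.140).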

How the data were processed

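The deposited tables hold raw counts. Per the file headers, featureCounts 1.6.0 assigned read pairs to genes over exons of Ensembl release 88 (GRCm38) with no strand option, from alignments named for STAR. Reads over exons of more than 1 gene were left unassigned. The libraries keep strand (dUTP), per the labels' protocols. These headers differ from the submitters' processing notes, which list HISAT2 2.0.4 and GRCm39, and also cutadapt 1.9 and StringTie 1.3.4d. Groups came from the titles, and WT males of 2 months numbered 4 to 6 were set beside the 18-month males.

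Counts were tested in R 4.3.3 with edgeR 4.0.16 (TMM, filterByExpr with a minimum count of 10, robust quasi-likelihood test, prior count 0.125, Benjamini-Hochberg at 0.05 over all genes tested). The 24 libraries of the FAD4T set shared 1 fit (18493 genes, 8 of 9 members) and the 6 of the ageing set another (16283 genes, 7 of 9). SE is the log2 fold change over the square root of F. Levels are CPM with TMM over 30 libraries. The test code was checked on simulated data. DESeq2 1.42.0 and other settings were alternatives. The members and all gene lists were chosen with earlier results of these data known. All members are named, and of other complement genes up to 4 called in each direction with the largest change, others being named after their values were seen. 1 other complement gene is not reported here. Patterns were compared over genes with a mean of at least 5 CPM. The approximate intervals were computed from the SE of the edgeR fit, so they include the spread between libraries. Limits from 3 counts cover counting error only.

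Same-numbered libraries deviated together (correlations over 0.1 for all 3 numbers) between FAD4T and WT males of 8 months (0.511, 0.491 and 0.621). The same held between WT males and females of 8 months (0.387, 0.375 and 0.106). These correlations do not establish pairs, no label shows them, and the main tests are unpaired. The title numbers entered only as a replicate block in an alternative fit. Deviations from a mean of 3 libraries depend on each other, so the 3 correlations are not independent. Libraries of different numbers were not compared.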

Additional observations from a re-analysis of the deposited data

How the results depend on the processing

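The number of members called moved in these cases. By DESeq2 it was 3 between 18 and 2 months (C6, C7 and C4b), 1 between 8 and 2 months in WT males (C7), 1 in FAD4T females (C3), and 3 between WT males and females of 2 months (C7, C4b and C3). With no filter on low counts, or with all 30 libraries in 1 fit, it was 2 at 18 months (C6 and C7). With the compared groups fitted alone it was 1 between 8 and 2 months in WT males (C4b) and 0 between WT males and females of 2 months. With all 6 WT males of 2 months as 1 group it was 1 for 8 against 2 months (C7) and 2 for males against females (C6 and C7). Without the thymocyte-high libraries it was 0 between 8 and 2 months in FAD4T males, and 1 in the averaged sex and 1 in the averaged age contrast, C7 in both. Leaving out 1 library at a time gave 0 to 1 for FAD4T females of 2 months against WT (1, C6, without WT replicate 2), 0 to 1 at 18 months, 0 to 1 between the ages in FAD4T males, 0 to 1 in FAD4T females, 0 to 4 between the sexes in WT of 2 months (4 without WT female replicate 2), 0 to 1 in FAD4T of 8 months and 2 to 4 in the averaged age contrast. The cause was not tested. The title number as a replicate block changed 0 of the counts in the 24 libraries. With that block the number of members called was 0 for FAD4T against WT males of 8 months. It was 1 for WT males against females of 8 months (C7). In the other comparisons the correlations of same-numbered libraries were not over 0.1 in all 3 pairs, and no label shows pairs in any comparison. No paired analysis was possible for 18 against 2 months because the groups share no number. With the compared groups alone the 1 member called between the ages in FAD4T males was C6 in place of C7. The block ended the calls on Csmd2 between the ages in WT males and on Fcna in FAD4T males. Of 3134 single-gene values, 0 called values reversed, 158 lost and 16 gained a call. DESeq2 called more genes overall in 16 of the 17 comparisons, for example 98 and 287 against 0 and 0 for FAD4T against WT in males and females of 2 months. Low counts limit C6 and Cfb, and reads over the exons that Cfb shares with Gm20547 went to no gene.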
